A study of Mus musculus with 15 samples.

Results

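The genes described here are 10 transcription regulators of the adrenogonadal primordium and the coelomic epithelium, namely Nr5a1, Gata4, Gata6, Wt1, Lhx9, Emx2, Tcf21, Nr0b1, Cbx2 and Osr1. They were chosen by name, with earlier results of these data known, and all 10 were found among the 28876 genes of the table. The shares of all tested genes given beside their counts therefore describe the set and are no test of it. Each was followed through 15 RNA-seq libraries of the mouse aorta-gonad-mesonephros (AGM) region in 5 groups of 3. At E9.5 the dorsal aorta and the tissue around it were cut into a dorsal piece (E9 AoD) and a ventral piece (E9 AoV). The same pieces of E10.5 embryos are E10 AoD and E10 AoV, and E10 UGR is their urogenital ridges. All embryos were untreated C57BL/6 mice with no genotype change named. Every library was made from whole tissue pooled from 15 to 34 embryos, so it holds every cell type of the dissected piece, and a lower level in bulk tissue can come from fewer cells of a type or from less RNA per cell, which cannot be told apart here.

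The coelomic epithelium is the sheet of mesoderm that lines the body cavity. On its ventromedial side, along the aorta and the mesonephros, it thickens and sheds cells that found the adrenogonadal primordium, the shared origin of the adrenal cortex and the gonad. WT1, GATA4, LHX9 and EMX2 act in this epithelium before NR5A1, the nuclear receptor whose appearance marks the primordium, and NR0B1 restrains NR5A1. The ventral aorta, the dissected part in which hematopoietic stem cells mature, lies against the medial face of this epithelium.

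Levels are given in RPM, reads scaled to a library total of 1e6 reads assigned to genes. The libraries held 33.8 to 48.6 times that number, worked out from the smallest step between low values, so that 3 reads, the most that a count of 0 allows, stand for 0.0617 to 0.0889 RPM by counting error alone. None of the 10 genes was below that level in any library. The lowest value was 0.301 RPM of Nr0b1, about 13 reads. The groups were checked against marker genes written down by hand. Summed RPM of 14 nephric duct and mesonephros markers was 634 to 647 in E10 UGR and 134 to 240 in the other groups. Summed RPM of 12 somite and muscle markers was 544 to 764 in both AoD groups and 36.8 to 88.0 in both AoV groups. Differences were taken between group means of log2(RPM + 0.1) with limma, and folds are given on that scale, which understates the change of low genes. A gene was called at an adjusted p below 0.05 if it also differed by 1 or more on the log2 scale in either direction. Here p measures the spread between the libraries of a group, which were pooled in separate experiments. The parts of a stage can come from the same embryos, and the main fit did not pair them.

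Promoter sequences were matched by symbol to RefSeq (GRCm38.p6, a later build than that of the deposited values), and 4 of the 10 genes had an entry. These 4 are shown because only they had one. All 4 are among the 7 genes of the set that were called higher in the ventral aorta at E10.5 than at E9.5, as described further on, and Nr5a1, Wt1 and Gata4 are the other 3. Each runs 5′ to 3′ along the gene's own strand from 250 bases before the start site to 50 bases after it. Capitals mark the matches to the words searched.
Lhx9, chr1:138842395-138842694, minus strand: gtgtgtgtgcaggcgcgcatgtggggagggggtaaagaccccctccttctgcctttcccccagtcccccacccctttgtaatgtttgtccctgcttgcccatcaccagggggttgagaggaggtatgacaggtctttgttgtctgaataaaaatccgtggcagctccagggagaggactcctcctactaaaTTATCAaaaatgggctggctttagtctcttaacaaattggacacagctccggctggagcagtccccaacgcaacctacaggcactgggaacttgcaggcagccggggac
Tcf21, chr10:22820094-22820393, minus strand: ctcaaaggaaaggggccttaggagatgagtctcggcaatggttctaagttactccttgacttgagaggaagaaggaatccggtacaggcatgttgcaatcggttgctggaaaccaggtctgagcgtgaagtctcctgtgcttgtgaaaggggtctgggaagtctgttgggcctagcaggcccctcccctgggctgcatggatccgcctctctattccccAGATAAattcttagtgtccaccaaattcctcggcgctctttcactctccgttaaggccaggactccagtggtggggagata
Emx2, chr19:59458440-59458739, plus strand: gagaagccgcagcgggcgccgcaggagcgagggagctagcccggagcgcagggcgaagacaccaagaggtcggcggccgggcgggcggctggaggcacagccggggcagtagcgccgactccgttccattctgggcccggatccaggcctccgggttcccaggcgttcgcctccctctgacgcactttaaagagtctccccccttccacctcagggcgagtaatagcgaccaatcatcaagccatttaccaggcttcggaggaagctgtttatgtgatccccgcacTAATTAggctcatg
Nr0b1, chrX:86191525-86191824, plus strand: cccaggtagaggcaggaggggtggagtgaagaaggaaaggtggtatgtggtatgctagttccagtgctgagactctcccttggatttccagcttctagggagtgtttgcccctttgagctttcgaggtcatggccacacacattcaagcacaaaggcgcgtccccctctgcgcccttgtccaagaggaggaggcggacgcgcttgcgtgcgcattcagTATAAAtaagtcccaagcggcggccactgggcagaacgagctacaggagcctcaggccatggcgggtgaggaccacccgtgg
The words were searched on both strands. The GATA word AGATAA was found in the Tcf21 window, beginning 31 bases before the start site. The other GATA word, TGATAA, was found in the Lhx9 window on its opposite strand, 59 bases before the start. Of the 32851 promoters of the table, 18.6% hold either. The homeodomain word TAATTA was found in the Emx2 window 37 bases after the start and occurs in 5.29% of all promoters. TATAAA was found in the Nr0b1 window 32 bases before the start and occurs in 13.6% of all promoters. The NR5A word AAGGTCA was in none of the 4 windows and occurs in 4.72% of all promoters. The E-box was searched as CAGCTG, also in the form CATATG, and with a mixed centre as CAGATG or, on the reverse strand, CATCTG. None of the 4 windows held it, against 33.4% of all promoters. The WT1 and EGR word GCGTGGG and its variant form GCGGGGG were also in none of the 4, against 14.7% of all promoters. These are matches of letters in a short window and not binding sites, and the words of the different factors do not overlap in these 4 windows. GC content was 53.3% to 64.3% against a median of 52.7% over all promoters. The Emx2 window held 26 CG pairs against a median of 7.

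Nr5a1 (SF-1), the nuclear receptor that drives steroidogenic genes in adrenal and gonad (ENSMUSG00000026751, chr2:38548176-38570062 of NCBIM37, minus strand), had the widest range of the 10. It was at 1.43, 1.75 and 0.513 RPM in the 3 E9 AoD libraries and at 0.638, 0.487 and 0.618 RPM in E9 AoV, the latter being 21 to 28 reads. At E10.5 it was at 3.59, 4.84 and 3.69 RPM in E10 AoD, at 66.3, 69.0 and 62.2 RPM in E10 AoV, and at 75.4, 72.0 and 83.4 RPM in E10 UGR. The gene was thus at 65 reads or fewer per library at E9.5 and abundant in ventral aorta and ridges a day later. The E10 AoD libraries lay between, above every E9.5 library and far below E10 AoV and E10 UGR. The lincRNA 4933433P16Rik, annotated on the other strand of Nr5a1 with no shared exon bases, stayed at or below 0.338 RPM in every library.

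Wt1, a zinc finger factor needed for kidney and gonad and a mark of the coelomic lining (ENSMUSG00000016458, chr2:104966686-105013773, plus strand), was at 40.0, 57.3 and 21.2 RPM in E9 AoD and at 39.4, 39.6 and 38.8 RPM in E9 AoV. It was at 37.7, 53.8 and 44.2 RPM in E10 AoD, at 231, 234 and 214 RPM in E10 AoV and at 382, 350 and 379 RPM in E10 UGR. The 3 lower groups overlapped one another, and the ridges lay above every E10 AoV library. Lhx9, a LIM homeodomain factor without which mice form no gonads (ENSMUSG00000019230, chr1:140721763-140745153, minus strand), showed the same floor in 3 groups. Its levels were 5.21, 3.52 and 6.16 RPM in E9 AoD, 6.56, 4.54 and 5.21 RPM in E9 AoV, with 3.30, 4.67 and 4.90 RPM in E10 AoD. In E10 AoV it was at 111, 121 and 116 RPM and in E10 UGR at 54.8, 48.7 and 60.8 RPM. For Lhx9 the ventral aorta therefore held the higher of the E10.5 levels, the opposite order to Wt1.

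Emx2, a homeodomain factor of the urogenital epithelium (ENSMUSG00000043969, chr19:59533180-59539847, plus strand), was at 13.3, 19.7 and 9.06 RPM in E9 AoD, 5.45, 3.62 and 4.59 RPM in E9 AoV, with 3.97, 7.98 and 6.56 RPM in E10 AoD. It reached 47.7, 52.2 and 41.9 RPM in E10 AoV and 117, 108 and 106 RPM in E10 UGR. Emx2 was the one gene of the 10 whose E9 AoD libraries all lay above both E9 AoV and E10 AoD. Nr0b1 (DAX1), an unusual nuclear receptor that binds NR5A1 and represses it (ENSMUSG00000025056, chrX:83437103-83441286, plus strand), was at 0.811, 1.16 and 0.983 RPM in E9 AoD, 0.433, 0.301 and 0.570 RPM in E9 AoV, with 0.410, 1 and 0.521 RPM in E10 AoD. It was at 2.31, 2.71 and 1.82 RPM in E10 AoV and 7.08, 7.11 and 6.48 RPM in E10 UGR. Nr0b1 values in the 3 lower groups stood for 13 to 46 reads, and its highest group was the ridges.

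The GATA factors had another pattern, being high in the ventral part at both stages. Gata4, which is needed for the genital ridge to thicken and also acts in heart and endoderm (ENSMUSG00000021944, chr14:63817759-63890529, minus strand), was at 11.2, 14 and 3.44 RPM in E9 AoD and 92.8, 103 and 91.1 RPM in E9 AoV. It was at 4.07, 5.24 and 6.32 RPM in E10 AoD, 216, 236 and 248 RPM in E10 AoV and 64.9, 57.8 and 69.4 RPM in E10 UGR. Its relative Gata6 (ENSMUSG00000005836, chr18:11052508-11085633, plus strand) was at 23.1, 25.8 and 13.6 RPM in E9 AoD, 130, 144 and 135 RPM in E9 AoV, with 14.5, 15.7 and 17 RPM in E10 AoD. It was at 193, 205 and 209 RPM in E10 AoV and 72.0, 61.5 and 69.0 RPM in E10 UGR. For both genes the order of the group means was E10 AoV, E9 AoV, E10 UGR, E9 AoD and E10 AoD, with overlapping libraries only between the 2 AoD groups. The lincRNA 1010001N08Rik, on the other strand of Gata6, shares 58 exon bases with it (1.82% of the Gata6 exon sequence). The library kit did not mark strand, so reads from those bases cannot be assigned to either gene, and 1010001N08Rik itself was at 0.203 to 6.37 RPM.

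Tcf21, a basic helix-loop-helix factor of visceral mesenchyme and coelomic lining (ENSMUSG00000045680, chr10:22537085-22539934, minus strand), was at 3.15, 5.75 and 2.29 RPM in E9 AoD, 16.1, 20.8 and 16.9 RPM in E9 AoV, with 2.38, 2.99 and 2.56 RPM in E10 AoD. It was at 51.6, 64.1 and 51.4 RPM in E10 AoV and at 33.6, 34.2 and 34.4 RPM in E10 UGR. Tcf21 shared with the GATA factors a high E9 AoV and a maximum in E10 AoV, but its ridges lay above E9 AoV. Osr1, a zinc finger factor of early intermediate mesoderm (ENSMUSG00000048387, chr12:9581248-9588305, plus strand), moved over a narrow range, with 11.6, 17.7 and 7.16 RPM in E9 AoD, 17.5, 19.2 and 19.0 RPM in E9 AoV, then 6.07, 6.85 and 7.08 RPM in E10 AoD, 19.6, 19.1 and 19.9 RPM in E10 AoV and 16.9, 14.3 and 16.1 RPM in E10 UGR. The E10 AoD libraries stood below all the others. Of the 50-base windows of Osr1 transcripts, 0.561% also occur in another gene, and none do for the other 9 genes.

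Cbx2, a chromodomain subunit of polycomb repressive complex 1 whose loss disturbs gonad development (ENSMUSG00000025577, chr11:118884276-118892584, plus strand), was close to level. It was at 182, 184 and 194 RPM in E9 AoD, 169, 183 and 183 RPM in E9 AoV, then 155, 157 and 147 RPM in E10 AoD, 152, 142 and 149 RPM in E10 AoV and 152, 154 and 160 RPM in E10 UGR. Every E9.5 library lay above every E10.5 library, and within a stage the groups overlapped.

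**Figure D1:**
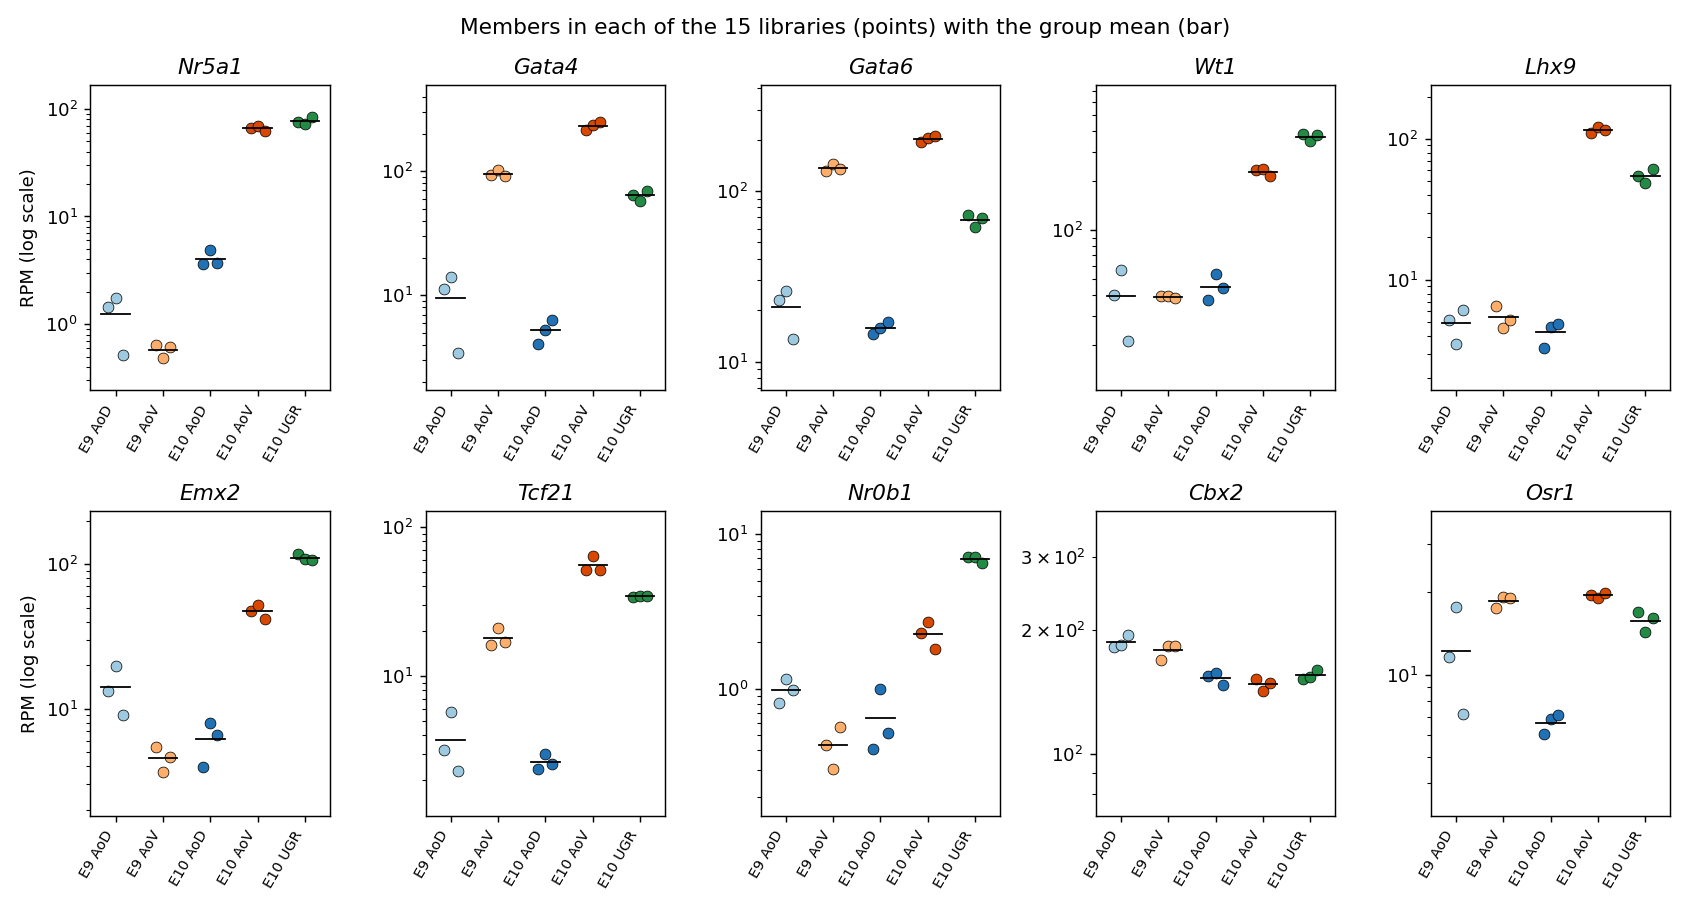
Level of each of the 10 genes in RPM on a log axis (vertical, scaled per gene) in the 15 libraries, with 3 points per group along the horizontal axis and a bar at the group mean. Nr5a1, Wt1, Lhx9, Emx2 and Nr0b1 are high in E10 AoV and E10 UGR alone, Gata4, Gata6 and Tcf21 are also raised in E9 AoV, and Cbx2 lies between 142 and 194 RPM throughout.

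How the set changed in the ventral aorta between E9.5 and E10.5 was tested first, because this is the tissue and the interval in which the AGM region gains its support of stem cells. In E10 AoV against E9 AoV, 7 of the 10 genes rose, against 6.04% of all 18553 tested genes called higher and 4.99% called lower. The median log2 fold change of the 10 was 1.90, against -0.0016 over all tested genes. Nr5a1 rose most, with a log2 difference of 6.60 (SE 0.28, adjusted p = 3.89e-10), a 97.2-fold higher level. Lhx9 rose 21.2-fold (log2 4.41, SE 0.19, adjusted p = 3.74e-10), and Emx2 rose 10.3-fold (log2 3.36, SE 0.26, adjusted p = 8.22e-08). Wt1 rose 5.75-fold, Nr0b1 4.49-fold, Tcf21 3.10-fold and Gata4 2.44-fold, with adjusted p between 7.42e-07 and 0.00714. Gata6 differed by 0.57 on the log2 scale (SE 0.16, adjusted p = 0.0104) and Cbx2 by -0.27 (SE 0.05, adjusted p = 0.000189), both short of the fold threshold and both without overlap between the stages. Osr1 differed by 0.07, with a 95% interval from -0.38 to 0.52. Nr5a1, Lhx9, Emx2, Wt1 and Nr0b1 thus had the larger differences. Tcf21, Gata4 and Gata6, all called higher in E9 AoV than in E9 AoD, had smaller ones. This grouping was made from the differences themselves. Markers of other cell types moved in the same comparison. Of 16 gut endoderm and liver markers 13 were called lower in E10 AoV (median log2 -5.23), their sum being 726 to 1073 RPM in E9 AoV and 46.5 to 51.3 RPM in E10 AoV, and of 10 tested heart and septum transversum markers 8 were lower (sums 389 to 405 and 161 to 166 RPM). Of 10 macrophage markers 9 were called higher (median log2 2.31), with sums of 11.7 to 15.0 RPM at E9.5 and 57.1 to 68.3 RPM at E10.5. Of 10 sympathoadrenal and neural crest markers 5 were higher (sums 68.2 to 71.7 and 93.95 to 122 RPM), and of 10 tested germ cell markers 4 were higher and 1 lower (sums 52.6 to 60.1 and 63.9 to 65.4 RPM). The germ cell sum hides opposite changes. Prdm1, its largest value in E9 AoV, fell from 23.6 to 7.22 RPM. Pou5f1 rose from 2.01 to 14.7 RPM, Dppa3 from 0.722 to 4.65, Nanog from 0.522 to 3.79 and Prdm14 from 0.193 to 1.19 RPM. The part of any of these cell types in the differences of the 10 genes was not tested.

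In the dorsal aorta fewer of the 10 genes were called over the same interval. In E10 AoD against E9 AoD, Nr5a1 was called higher and Emx2 lower, where 8.6% of all tested genes were called higher and 4.0% lower. Nr5a1 rose 3.41-fold (log2 1.77, SE 0.28, adjusted p = 8.63e-05), to a level still 16.1-fold below E10 AoV. Emx2 fell 2.23-fold (log2 -1.16, SE 0.26, adjusted p = 0.00130), but its log2 difference was -0.88 without E9 AoD replicate 2 and -0.87 without E10 AoD replicate 1, and it was then not called. The median of the 10 was -0.37. Gata4 (-0.66), Gata6 (-0.35), Tcf21 (-0.39) and Nr0b1 (-0.61) had negative log2 differences with adjusted p between 0.0530 and 0.160, and Osr1 (-0.77) and Cbx2 (-0.29) passed the p threshold and not the fold threshold. These values rest on the E9 AoD libraries, which differed from one another. E9 AoD replicate 3 was the lowest of the group for 7 of the 10 genes and replicate 2 the highest for 8. The highest library was a median of 2.32 times the lowest over the 10 genes in E9 AoD, and 1.10 to 1.39 times in the other groups. Summed RPM of 12 neural tube markers was 254, 211 and 399 in E9 AoD replicates 1 to 3, and that of the nephric markers was 157, 217 and 142. The part of this in the result was not tested. Without E9 AoD replicate 3, Gata4 (log2 -1.27) and Osr1 (log2 -1.10) were also called lower in E10 AoD, and Wt1 turned from 0.29 to -0.10. Among 16 tested coelomic epithelium and mesothelium genes, described further on, 9 were called lower in E10 AoD and 1 higher (median log2 -1.21). Nephric markers were lower for 7 of 14 and higher for 3, and neural tube markers lower for 10 of 12. Sympathoadrenal and neural crest markers were higher for 7 of 10, and macrophage markers for 9 of 10. The part of these cell types in the differences of the 10 genes was not tested.

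The difference of these changes, ventral aorta minus dorsal aorta, was called for 7 genes, all with a larger change in the ventral part, against 4.12% of all tested genes with a positive call and 6.89% with a negative one. The log2 difference of the changes was 4.83 for Nr5a1 (SE 0.40, adjusted p = 6.96e-07), 4.60 for Lhx9 (SE 0.26, adjusted p = 2.95e-08) and 4.52 for Emx2 (SE 0.36, adjusted p = 5.00e-07). It was 2.78 for Nr0b1, 2.23 for Wt1, 2.02 for Tcf21 and 1.95 for Gata4, with adjusted p up to 0.00783. Gata6 (0.92) and Osr1 (0.84) passed the p threshold alone, and were called as well without E9 AoD replicate 3, at 1.203 and 1.17. Cbx2 was at 0.02, with an interval from -0.12 to 0.15. Its sign turned under quantile normalization and under weights for single libraries.

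**Figure D2:**
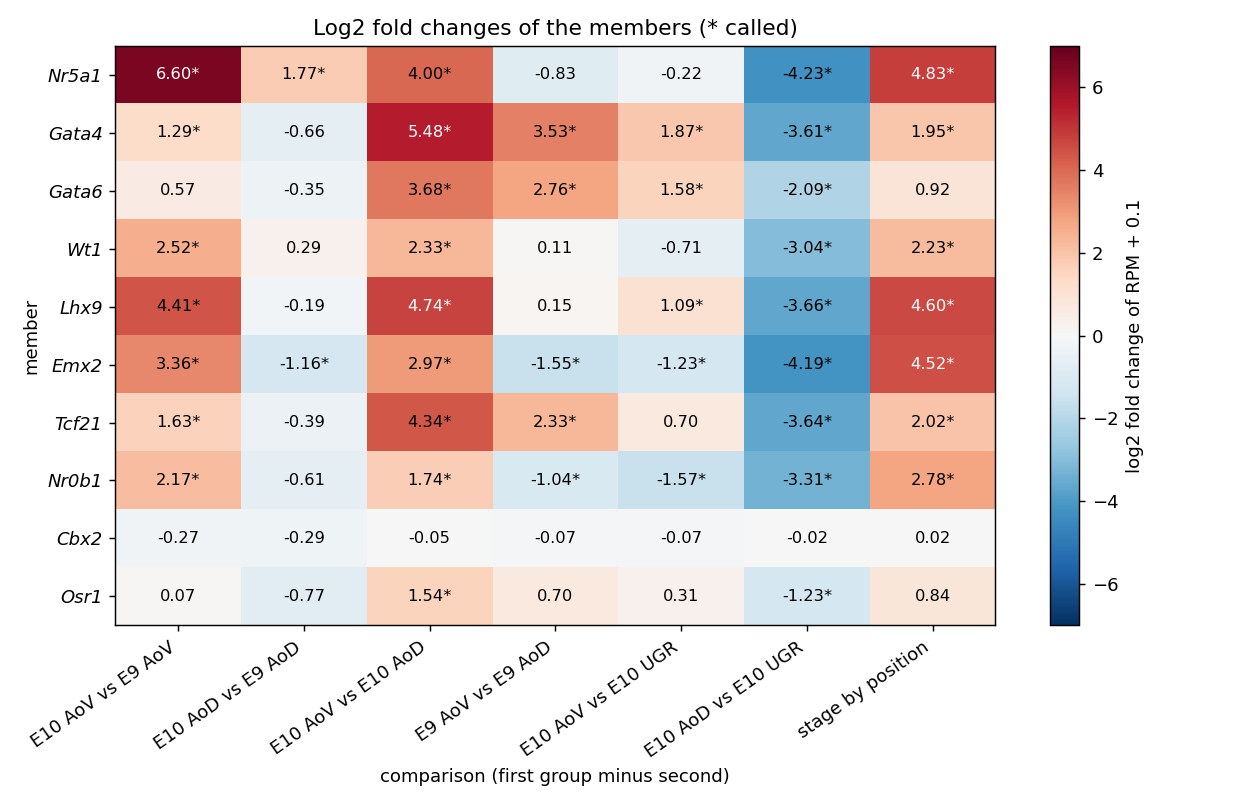
Log2 fold changes of RPM + 0.1 for the 10 genes (rows) in 7 comparisons (columns, first group minus second, the last being the change over time in AoV minus that in AoD), with red for higher, blue for lower and an asterisk for a call. Cbx2 has no call in any column, and the E10 AoV vs E10 AoD and E10 AoD vs E10 UGR columns each have 9 calls.

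At E10.5 the ventral aorta stood above the dorsal aorta for 9 of the 10 genes, all but Cbx2. Of all tested genes, 5.81% were called higher and 4.29% lower in this comparison. The median log2 fold change of the 10 was 3.32, against 0.02 over all tested genes. Gata4 was 44.6-fold higher ventrally (log2 5.48, SE 0.35, adjusted p = 1.34e-08), followed by Lhx9 at 26.8-fold and Tcf21 at 20.3-fold. Nr5a1 was 16.1-fold higher (log2 4.005, SE 0.28, adjusted p = 4.09e-08), Gata6 12.8-fold and Emx2 7.83-fold. Wt1 was 5.04-fold, Nr0b1 3.34-fold and Osr1 2.91-fold higher, with adjusted p between 1.80e-06 and 7.13e-05. For these 9 genes the lowest E10 AoV library was above the highest E10 AoD library. Cbx2 differed by -0.05, with an interval from -0.15 to 0.05. The dorsal libraries held 611 to 764 RPM of somite and muscle markers against 36.8 to 44.2 RPM in E10 AoV. Heart and septum transversum markers were called higher in E10 AoV for 6 of 10 tested and lower for 1. Germ cell markers were higher for 7 of 10 tested and lower for 1, and nephric markers higher for 7 of 14 and lower for 2. Neural tube markers were lower for 11 of 12, and sympathoadrenal and neural crest markers for 8 of 10, with 0 higher. The part of any of these cells in these differences was not tested.

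A day earlier the dorsal and ventral parts differed for fewer of the genes, and in both directions. In E9 AoV against E9 AoD, Gata4, Gata6 and Tcf21 were called higher and Emx2 and Nr0b1 lower, where 8.32% of all tested genes were called higher and 3.47% lower. Gata4 was 11.6-fold higher ventrally (log2 3.53, SE 0.35, adjusted p = 9.93e-07), Gata6 6.75-fold (log2 2.76, SE 0.16, adjusted p = 6.84e-09) and Tcf21 5.02-fold (log2 2.33, SE 0.23, adjusted p = 9.10e-07). Emx2 was 2.93-fold lower ventrally (log2 -1.55, SE 0.26, adjusted p = 0.000156). Nr0b1 was 2.06-fold lower (log2 -1.04, SE 0.26, adjusted p = 0.00367), but not called without E9 AoD replicate 2 (-0.92), without E9 AoV replicate 2 (-0.85), or with a pseudocount of 0.5 RPM (-0.67). Lhx9 (0.15, interval -0.25 to 0.55) and Wt1 (0.11, interval -0.40 to 0.61) did not pass, and their signs turned without E9 AoD replicate 2 (Lhx9, -0.07) or replicate 3 (Wt1, -0.29). Osr1 (0.70) and Nr5a1 (-0.83) passed the p threshold alone. Osr1 was called, at 1.02, without E9 AoD replicate 2, and Nr5a1, at -1.31, without replicate 3. GATA4, GATA6 and TCF21 are also factors of heart, septum transversum or endoderm. Summed RPM of 16 gut endoderm and liver markers was 726 to 1073 in E9 AoV, where all 16 had a mean of at least 0.5 RPM, and 46.5 to 97.9 in the other groups, where 6 to 12 had. Summed RPM of 11 heart and septum transversum markers was 389 to 405 in E9 AoV, 161 to 166 in E10 AoV and 26.2 to 89.3 in the other groups, with 10, 10 and 7 to 9 markers at that level. No marker of either list was at 0 in every library of a group, and their part in the E9 AoV levels was not tested. The coelomic epithelium and mesothelium list moved in the same direction. There 10 of 16 tested genes were called higher in E9 AoV than in E9 AoD and 0 lower (median log2 1.66). That list holds keratins, which are also genes of gut epithelium. The part of coelomic cells in these differences was not tested either. Of 14 nephric duct and mesonephros markers 5 were called lower and 1 higher in E9 AoV than in E9 AoD (median log2 -0.50). Their sums were 134 to 142 RPM in E9 AoV and 142 to 217 RPM in E9 AoD. The part of nephric cells in the Emx2 and Nr0b1 differences was not tested.

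The urogenital ridges, the site of mesonephros and future gonad, were set against both parts of the aorta at E10.5. E10 AoV differed from E10 UGR in 5 genes, 3 higher and 2 lower, where 3.84% of all tested genes were called higher and 3.73% lower. Gata4 was 3.64-fold higher in the ventral aorta (log2 1.87, SE 0.35, adjusted p = 0.000788), Gata6 2.999-fold (log2 1.58, SE 0.16, adjusted p = 3.52e-06) and Lhx9 2.12-fold (log2 1.09, SE 0.19, adjusted p = 0.000418). Nr0b1 was 2.97-fold lower in the ventral aorta than in the ridges (log2 -1.57, SE 0.26, adjusted p = 0.000262) and Emx2 2.34-fold lower (log2 -1.23, SE 0.26, adjusted p = 0.00198). Tcf21 (0.70) and Wt1 (-0.71) passed the p threshold and not the fold threshold. Nr5a1 differed by -0.22 with an interval from -0.83 to 0.38 (adjusted p = 0.615), Osr1 by 0.31 with an interval from -0.14 to 0.76, and Cbx2 by -0.07 with an interval from -0.17 to 0.02. For 9 of the 10 genes, all but Cbx2, the E10 AoV and E10 UGR libraries did not overlap, Nr5a1 and Osr1 included. When the fold was tested against 2 itself, with limma's treat, none of the 5 calls was kept, and the lowest adjusted p was 0.0505, for Gata6. The fit gives each gene the same SE in all pairwise comparisons, from the spread of all 15 libraries, E9 AoD included. The highest library was a median of 2.32 times the lowest over the 10 genes in E9 AoD. This was 1.10 times for E10 AoV and 1.13 times for the ridges. Under other limma settings adjusted p fell as low as 0.0171 for Nr5a1 and 0.00599 for Osr1, but neither was called. Treat without the E9 AoD libraries was not tested. The nephric duct and mesonephros markers summed to 634 to 647 RPM in E10 UGR and 141 to 165 RPM in E10 AoV. At a mean of 0.5 RPM or more were 14 of 14 in E10 UGR and 13 of 14 in E10 AoV. In the fit 12 of the 14 were called lower in E10 AoV than in E10 UGR and 0 higher (median log2 -2.88). Of 12 somite and muscle markers 8 were called lower in E10 AoV and 0 higher (median log2 -1.73). The part of nephric and somite cells in the higher Emx2, Nr0b1 and Wt1 of the ridges was not tested. On the side of E10 AoV, 7 of 10 tested heart and septum transversum markers were called higher and 2 lower (sums 161 to 166 RPM against 26.2 to 30.4 RPM in E10 UGR), and 6 of 10 tested germ cell markers were called higher (sums 63.9 to 65.4 against 24.1 to 25.7 RPM). Their part in the higher Gata4, Gata6 and Lhx9 of E10 AoV was not tested.

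E10 AoD was lower than E10 UGR for 9 of the genes, all but Cbx2, where 4.76% of all tested genes were called higher and 6.56% lower. The log2 differences were -4.23 for Nr5a1, -4.19 for Emx2, -3.66 for Lhx9, -3.64 for Tcf21, -3.61 for Gata4, -3.31 for Nr0b1, -3.04 for Wt1, -2.09 for Gata6 and -1.23 for Osr1. Adjusted p was at most 0.000254, and the libraries of the 9 genes did not overlap. This comparison shares E10 AoD with the dorsal-ventral one and E10 UGR with the one before. Cbx2 differed by -0.02, a value whose sign turned under another scaling of the libraries (0.04).

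**Figure D3:**
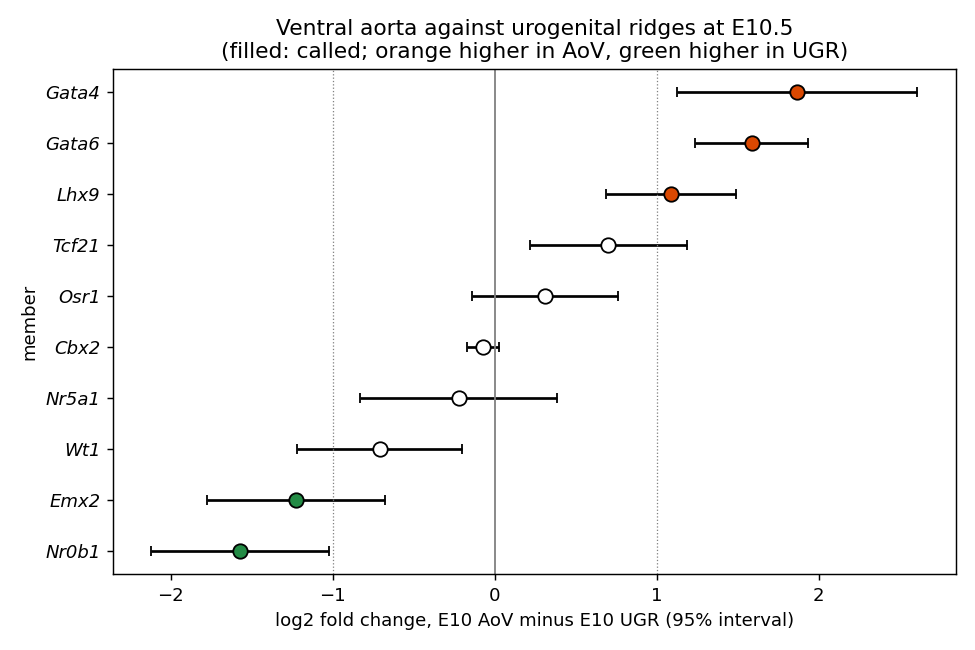
Log2 fold change of E10 AoV against E10 UGR (horizontal) for each of the 10 genes (vertical), with 95% intervals, filled orange when called higher in AoV and green when called higher in UGR, and dotted lines at a fold change of 2. Gata4, Gata6 and Lhx9 lie to the right, Emx2 and Nr0b1 to the left. The intervals of Osr1, Cbx2 and Nr5a1 cover 0 in this fit, whose SE comes from all 15 libraries.

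RPM of different genes cannot be compared without their lengths, so levels were also divided by the exon length of each gene. On this scale the order of the genes changed from group to group. In E10 AoV, Gata6 led with 63.3 ± 2.61 RPM per kb (SD, n = 3), next to Gata4 with 59.7 ± 4.13, and the SDs of these 2 overlapped, then Tcf21 with 45.5 ± 5.95 and Wt1 with 36.5 ± 1.74. In E10 UGR, Wt1 led with 59.8 ± 2.85 RPM per kb, followed by Emx2 with 41.1 ± 2.18, Cbx2 with 36.5 ± 0.98 and Tcf21 with 27.9 ± 0.34. Nr5a1, at 15.5 ± 0.81 and 18.1 ± 1.38 RPM per kb in E10 AoV and E10 UGR, stood at the 73.6th and 76.7th percentile of all tested genes on this scale. In E9 AoV, Gata6 (42.7 ± 2.22) and Cbx2 (41.9 ± 1.90) were on top and not apart beyond their SDs, and Nr5a1 was last with 0.137 ± 0.019. In both AoD groups Cbx2 led, with 43.8 ± 1.51 in E9 AoD and 35.9 ± 1.24 in E10 AoD, and no other gene passed 7.30 RPM per kb. Nr0b1 was last in the 3 groups of E10.5, between 0.356 and 3.81 RPM per kb. With the longest transcript in place of all exons, Wt1 was at 73.2 RPM per kb in E10 AoV and came first there, and 5 of the 10 places in that group changed.

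**Figure D4:**
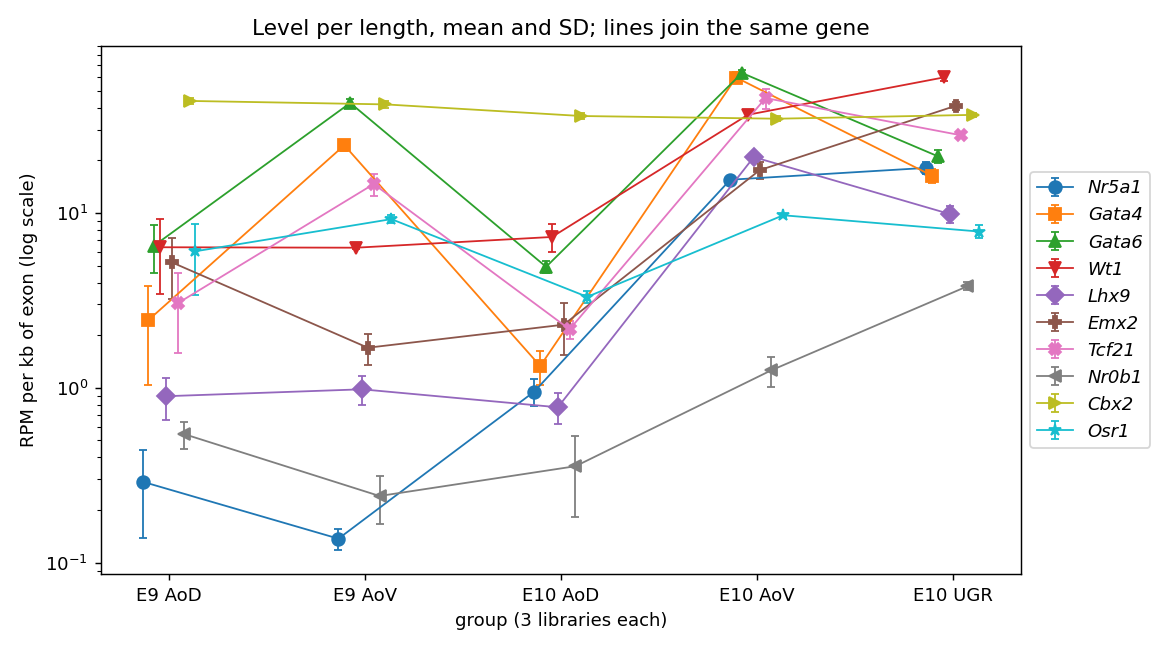
Mean level in RPM per kb of exon (vertical, log axis) with SD of 3 libraries for the 10 genes in the 5 groups (horizontal), lines joining the values of a gene. Cbx2 stays near 40 in all groups, Nr5a1 climbs from 0.137 in E9 AoV to 15.5 in E10 AoV, and the other lines dip or stay low in E10 AoD.

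Genes with the most similar pattern were taken as the 3 with the highest Pearson correlation of log2 levels over the 15 libraries, out of 13207 genes with a mean of at least 5 RPM in a group. This likeness describes the pattern over 5 groups and is no evidence of a shared role. For Emx2 the first was its divergent neighbour AC098733.1 (r = 0.983), named Emx2os in the annotation, a lincRNA at chr19:59499594-59533125 on the minus strand that lies 55 bases from Emx2 and does not overlap it. It was at 16.2 RPM in E10 AoV, 32.9 in E10 UGR and 0.907 to 2.96 in the other groups, as group means. Gata4 and Gata6 were among the 3 nearest of each other (r = 0.989), and both had Cd151, a tetraspanin, on their lists. The first gene was Gm98 for Gata4 (r = 0.992) and AC154620.1 for Gata6 (r = 0.990). Emx2 was second on the list of Nr0b1 (r = 0.975), after Gldn, which was also among the 3 for Emx2. The list of Nr5a1 held Stac2 (r = 0.992), Plat, the tissue plasminogen activator (r = 0.990), and Lor (r = 0.981). Plat was at 121 and 132 RPM in E10 AoV and E10 UGR and at 40.6 to 58.1 RPM elsewhere. For Wt1 the first was Zbtb7c (r = 0.989), for Lhx9 Zdhhc2 (r = 0.980), and for Tcf21 F11r, a junctional adhesion molecule (r = 0.991), with Sfrp1, a secreted Wnt antagonist, also among its 3. The list of Osr1 began with RP23-285N14.1 (r = 0.946), followed by Lrrn4, a gene of mesothelium (r = 0.941), and Gata5 (r = 0.940). Cbx2 was nearest to 1110007A13Rik (r = 0.968), followed by Max, the partner of MYC, and Nup107, a subunit of the nuclear pore, all of them higher at E9.5.

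Other genes of the same biology were taken from 6 lists and counted in 3 comparisons, with some genes, Nr2f2, Rspo1, Lhcgr and Fshr among them, on more than 1 list, E10 AoV against E9 AoV, against E10 AoD and against E10 UGR. The counts are to be read against the shares over all tested genes, which were 6.04% called higher and 4.99% lower in the comparison of the stages, 5.81% and 4.29% in that with the dorsal part, and 3.84% and 3.73% in that with the ridges. The median log2 fold changes over all tested genes were -0.0016, 0.02 and -0.05 in the same order. The first list held 22 regulators and cofactors of the urogenital ridge and adrenogonadal primordium. In E10 AoV against E9 AoV 6 were called higher and 2 lower, with a median log2 fold change of 0.45. Foxc1, a forkhead factor of mesoderm, rose from 39.6 ± 6.06 to 170 ± 6.66 RPM, and Nr2f1, an orphan nuclear receptor, from 103.5 ± 6.06 to 345 ± 11.9 RPM. Foxc1 was highest in the dorsal part, with means of 262 RPM in E10 AoD, 114 RPM in E9 AoD and 138 RPM in E10 UGR. The means of Nr2f1 were 181, 184 and 257 RPM in the same order, all below E10 AoV. Against E10 AoD 3 were higher and 3 lower, with a median of -0.02. Zfpm2 (FOG2), the cofactor that binds GATA4, was at 47.3 ± 4.90 RPM in E10 AoV against 7.21 ± 0.58 RPM dorsally (log2 2.70, adjusted p = 3.47e-10), and at 22.7 ± 1.93 RPM in E10 UGR (log2 1.05 for E10 AoV against it). Against E10 UGR 1 was higher and 2 were lower, with a median of 0.01.

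Of 20 close relatives of the 10 genes, 18 passed the filter on low values. In E10 AoV against E9 AoV 3 were called higher and 3 lower (median 0.02), against E10 AoD 4 higher and 1 lower (median 0.30), and against E10 UGR 2 higher and 7 lower (median 0.06). Gata5 was at 40.2 ± 2.55 RPM in the E10 AoV libraries against 1.31 ± 0.48 RPM dorsally, a log2 difference of 4.89 (adjusted p = 4.29e-09). Nr5a2, the relative of Nr5a1 known from liver and pancreas, was at 1.73 ± 0.12 RPM in E10 AoV after 9.80 ± 1.50 RPM in E9 AoV (log2 -2.43), and Lhx2 from 15.1 ± 2.72 to 1.27 ± 0.39 RPM (log2 -3.50). Tcf15, a factor of somites, was higher dorsally, with 27.0 ± 4.64 RPM against 5.53 ± 0.19 RPM in E10 AoV. Lhx1 and Osr2 were lower in E10 AoV than in the ridges, at 4.80 ± 0.73 against 43.7 ± 4.56 RPM and at 8.43 ± 1.93 against 32.3 ± 0.78 RPM. Lhx1, Lhx2, Gata3, Emx1 and Tcf15 also stand on the marker lists of other tissues.

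Cbx2 acts within polycomb repressive complex 1, and all 11 other subunits on the list passed the filter. The median log2 fold change of the list was 0.16 in E10 AoV against E9 AoV, 0.07 against E10 AoD and 0.02 against E10 UGR. Against E10 UGR limma called 0, with 3 of the 11 at an unadjusted p below 0.05.

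Of 18 steroidogenic genes 17 were found and 11 passed the filter. In E10 AoV 4 were called higher than in E9 AoV (median 0.54), 4 higher than in E10 AoD (median 0.50) and 1 higher than in E10 UGR (median -0.07). The 1 call against E10 UGR was lost with pseudocounts of 0.5 and 1 RPM and under treat. The 4 calls against E10 AoD were 2 with a pseudocount of 1 RPM and 1 under treat, and the 4 against E9 AoV were 2 under treat. Mc2r, the receptor for ACTH, was at 1.13 ± 0.16 RPM in E9 AoV but 12.3 ± 1.26 RPM in E10 AoV, next to 5.76 ± 1.02 RPM in E10 AoD and 14.9 ± 0.83 RPM in E10 UGR, with a log2 difference of 3.34 between the ventral stages (adjusted p = 1.85e-07). Hsd3b6 was at 11.5 ± 2.12 RPM in E10 AoV and 4.24 ± 1.35 in E9 AoV, and Inha, the inhibin alpha subunit, at 7.23 ± 0.47 RPM in E10 AoV against 3.09 ± 0.31 dorsally. Mean Hsd3b6 was 12.1 RPM in E10 AoD, 2.33 RPM in E9 AoD and 8.72 RPM in E10 UGR. Its E10 AoV mean was thus not above the dorsal one. Cyp11a1, the enzyme that opens steroid synthesis, was at 0.930 ± 0.049 RPM in E10 AoV against 1.71 ± 0.38 RPM in E10 UGR and at means of 0.0891 to 0.194 RPM in the other groups, and is named here after its values were seen.

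Of 18 early gonad genes 17 were found and 13 tested, of which 7 were higher in E10 AoV than in E9 AoV (median 1.04), 7 higher than in E10 AoD (median 1.50), and 2 higher and 3 lower than in E10 UGR (median 0.08). Amhr2, the receptor for anti-Müllerian hormone, was at 0.640 ± 0.207 RPM in E9 AoV, 1.12 ± 0.18 RPM in E10 AoD, and at 17.2 ± 2.0 RPM in E10 AoV, with 20.6 ± 2.36 RPM in the ridges. It was the list's leading gene in both comparisons within the aorta, with log2 differences of 4.58 and 3.83. Sox9 was at 75.9 ± 11.8 RPM in E10 AoV against 21.2 ± 2.11 RPM in E9 AoV, and its mean was 56.2 ± 6.33 RPM in E9 AoD, 136 ± 26.1 RPM in E10 AoD and 43.7 ± 5.71 RPM in E10 UGR. Fgf9 was at 7.09 ± 0.42 RPM in E10 AoV against 0.796 ± 0.253 RPM dorsally. Wnt4, which is also a gene of the mesonephros, was 25.5 ± 4.02 RPM in E10 AoV against 116 ± 6.43 RPM in E10 UGR (log2 -2.19), and Fst 6.09 ± 0.49 against 14.7 ± 0.67 RPM. The 7 calls against E9 AoV were 4 with a pseudocount of 1 RPM and 2 under treat. The 5 calls against the ridges were 3 without E10 UGR replicate 2 and with pseudocounts of 0.5 or 1 RPM, and 1 under treat.

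Of 18 genes of coelomic epithelium and mesothelium 16 were tested. Against E9 AoV 4 were higher and 5 lower in E10 AoV (median 0.05), against E10 AoD 11 were higher (median 2.13), and against E10 UGR 2 were higher and 2 lower (median 0.22). Aldh1a1, a retinoic acid enzyme, was at 10.9 ± 2.09 RPM in E10 AoV, 1.31 ± 0.15 in E9 AoV and 0.388 ± 0.088 in E10 AoD. Upk3b, a mark of mesothelium, was at 82.5 ± 10.1 RPM in E10 AoV against 3.71 ± 1.15 RPM dorsally (log2 4.48, adjusted p = 1.93e-08). Krt7 was lower in E10 AoV than in E9 AoV, with 2.78 ± 0.32 against 21.97 ± 1.012 RPM, and keratins are also genes of gut epithelium. Cdh1, the epithelial cadherin, was at 10.97 ± 0.75 RPM in E10 AoV against 66.9 ± 4.34 RPM in E10 UGR, and Tbx18, a factor of mesothelium and mesenchyme, was higher in E10 AoV, with 64.2 ± 2.42 against 19.3 ± 3.19 RPM.

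**Figure D5:**
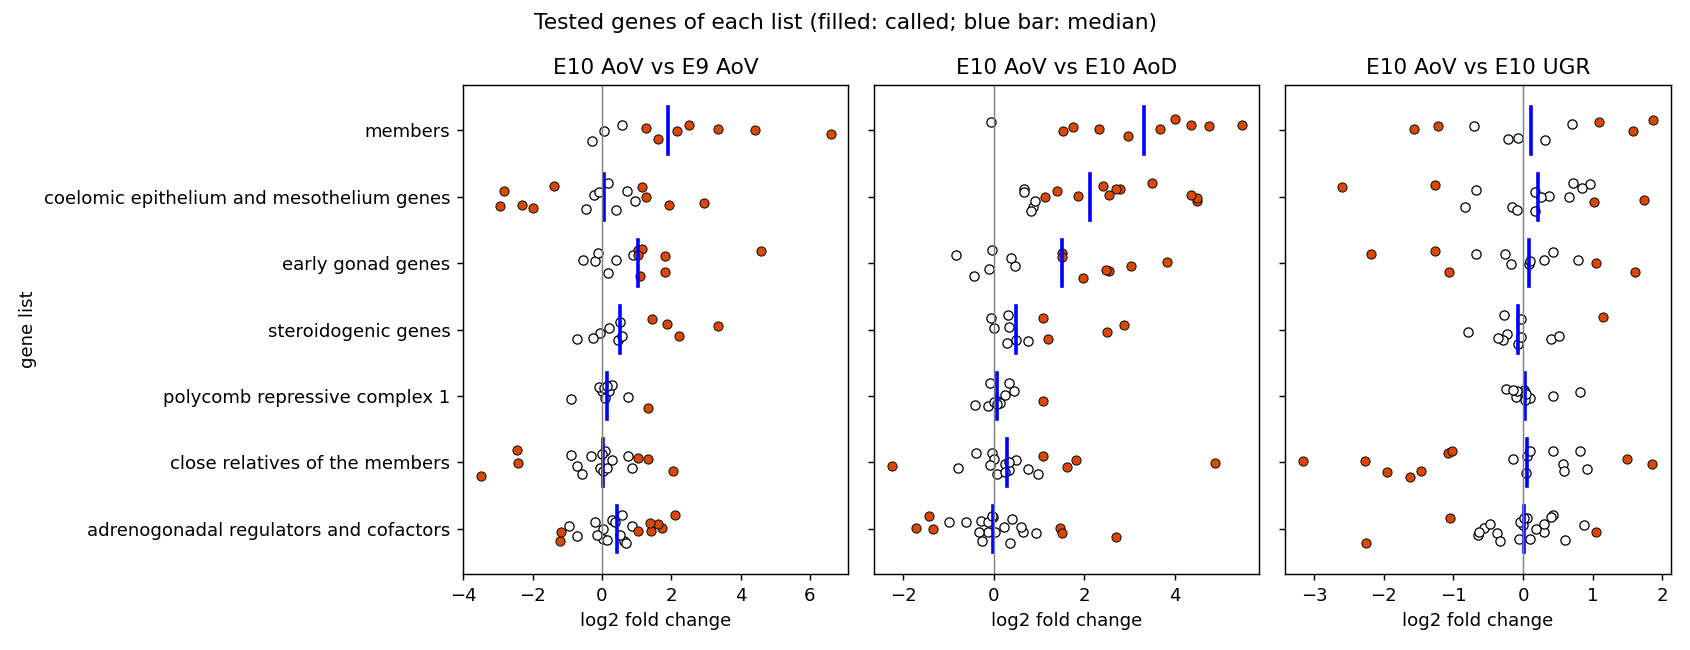
Log2 fold changes (horizontal) of the tested genes of the 6 lists and of the 10 genes themselves (rows, each point 1 gene, filled when called, blue bar at the median) in 3 comparisons with E10 AoV first. Against E10 AoD the medians of the coelomic epithelium list (2.13), the early gonad list (1.50) and the 10 genes (3.32) lie to the right of 0, and against E10 UGR all medians lie between -0.07 and 0.22.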

How the data were processed

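The deposited values were RPM, reads scaled to 1e6 reads assigned to genes, which the authors made from 50-base single-end reads aligned with TopHat and Bowtie 0.12.3 to NCBIM37 (mm9) and counted with GeneProf over Ensembl genes, dividing reads with several places in proportion to unique reads. The kit did not mark strand. The authors' 12 columns of DESeq comparisons were not used. Values were rounded to 3 digits, and only 55.7% to 58.2% of low values per library were whole multiples of 1 read, so no count test was run.

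Samples were grouped by their labels. In R 4.3.3, limma 3.58.1 was fitted to log2(RPM + 0.1) with a mean per group over all 15 libraries, for 18553 genes with at least 0.5 RPM in 1 library or more, with Benjamini-Hochberg adjustment over these genes within each of 7 comparisons. The fit was tested on simulated data. The 10 genes, the gene lists and the marker lists were chosen with earlier results of these data known. Besides the 10, the genes set to be named were the 3 most alike to each. From each list they were, in 3 comparisons, the 2 called genes of largest change with at least 5 RPM in a compared group. Not all of these are named, and a few marker genes were named after their values were seen. Positions came from the GENCODE annotation of NCBIM37, and tables and figures from Python 3.11.15. Other pseudocounts, filters, scalings, weights, a replicate block and leaving out each library were tried. Some genes of the lists are not reported here by name. Replicate numbers paired the E9 AoD and E9 AoV libraries by their values, with correlations of deviations from the group means of 0.190 to 0.452 over 3 pairs.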

Additional observations from a re-analysis of the deposited data

Results flagged for a closer look

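Ventral and dorsal aorta differed in how much they changed between the stages for 7 of the 10 genes, by limma's test of the interaction of stage and position. The ventral change was larger by 4.83 on the log2 scale for Nr5a1, 4.60 for Lhx9, 4.52 for Emx2, 2.78 for Nr0b1, 2.23 for Wt1, 2.02 for Tcf21 and 1.95 for Gata4. Every one of these rests on the E9 AoD libraries, in which the highest value was a median of 2.32 times the lowest over the 10 genes. Leaving out any single library kept the 7 to 9 calls positive.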

How the results depend on the processing

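Across the 10 genes and 7 comparisons, all 70 results kept their direction and side of the threshold with no filter on low values, with 0.5 RPM asked in 3 libraries, with a fit over the compared groups alone, and with the replicate block. Over all genes the replicate block changed the calls in E9 AoV against E9 AoD from 2187 to 2188, and so did a replicate block within each stage, which was chosen after seeing the data and also kept all 70 results. In the other comparisons of 2 groups 0 to 2 of 3 same-numbered pairs correlated over 0.1, so their numbers were not taken as pairs. Within E10.5 all same-numbered correlations were positive. They were 0.0416 to 0.205 for AoV with AoD, 0.0889 to 0.168 for AoV with UGR and 0.0441 to 0.339 for AoD with UGR. The numbers may thus mark pairs at E10.5 too, which the replicate block within each stage allows for. The count of the 10 genes called in E10 AoD against E9 AoD was 2, and it was 4 with no fold threshold, 0 under limma's treat, and 1 to 4 when single libraries were left out (1 without E9 AoD replicate 2 or E10 AoD replicate 1, 4 without E9 AoD replicate 3). For E9 AoV against E9 AoD it was 5, 3 under treat and 4 to 6 when single libraries were left out, and for E10 AoV against E10 UGR it was 5 and 0 under treat. The cause was not tested. Under treat the list of regulators and cofactors went from 8 calls against E9 AoV to 4 and from 3 against E10 UGR to 1, the relatives from 5 against E10 AoD to 3 (also 3 with a pseudocount of 1 RPM) and from 9 against E10 UGR to 5, and the coelomic list from 4 against E10 UGR to 2. Signs turned only among uncalled values. Wt1 in E9 AoV against E9 AoD was -0.0182 with library weights and -0.29 to 0.43 with single libraries left out, and in E10 AoD against E9 AoD -0.10 to 0.62. Lhx9 in E9 AoV against E9 AoD was -0.0502 after quantile normalization and -0.0746 to 0.32 with single libraries left out. Cbx2 in E10 AoD against E10 UGR was 0.0383 after median-of-ratios scaling and -0.041 to 0.00649 with single libraries left out, and its change over time in AoV minus that in AoD was -0.0317 after quantile normalization, -0.00665 with library weights and -0.0231 to 0.0431 with single libraries left out. Over all genes, calls numbered 1404 to 2337 per comparison, 5214 to 10730 with no fold threshold, 735 to 1281 with a pseudocount of 1 RPM and 535 to 1047 under treat. Quantile normalization moved the split in E9 AoV against E9 AoD from 1544 higher and 643 lower to 1200 and 820. Depth limits Nr0b1 and Nr5a1 most, which stood for 13 to 65 reads per library at E9.5.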
